A study of Mus musculus with 9 samples.

Results

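The genes described here are 40 genes that respond to type I interferon, taken by symbol from the 26770 genes of the expression table. All 40 were found in the table and all 40 passed the filter on low counts, which left 15447 genes for testing. They were measured by RNA sequencing in monocytes taken from the spleen of wild-type (WT) mice, in 9 libraries that fall into 3 groups of 3. Untreated cells received the solvent DMSO at a dilution of 1 in 1000. The LPS group received lipopolysaccharide, a component of the bacterial outer membrane, at 40 ng/ml for 5 hours. In the third group LPS priming was followed by octanal at 20 µM. Octanal is an aldehyde that the olfactory receptor Olfr2 binds. The single-sample labels give the octanal time as 18, 19 and 20 hours and the DMSO dilution as 1 in 1000, 1001 and 1002, and the libraries of a group were treated as alike. No deletion, transgene or second genotype is involved. The labels give neither the LPS dose and time of the octanal group nor the culture time and solvent of the LPS group. For the octanal group, octanal, LPS dose, LPS time, time in culture and solvent therefore cannot be told apart. In LPS against untreated, LPS, time in culture and solvent cannot be told apart for the same reason. Whether the replicates of a group are separate mice or cultures is not stated, and p-values therefore measure only the spread between these libraries, which may be technical.

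Type I interferons are secreted proteins that bind a receptor made of IFNAR1 and IFNAR2. The receptor activates the kinases TYK2 and JAK1, and a complex that contains STAT2 and IRF9 then binds a DNA motif called the interferon-stimulated response element (ISRE). In monocytes and macrophages LPS can start this loop through Toll-like receptor 4 and the adaptor TICAM1, which lead to transcription of interferon beta. The products of the induced genes bind or cut viral RNA, block viral entry and budding, attach the small protein ISG15 to other proteins, and sense foreign nucleic acid.

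Total counts were 29594291 to 38388421 per library, and replicates of a group differed by 42.9 to 142 chi-square units for each degree of freedom, where counting error alone gives about 1. Of 13 monocyte markers none was at 0 in any library. Their summed level was 6246 to 14265 CPM (counts scaled to a common library total with edgeR's TMM factors) in untreated, 2605 to 3987 in LPS and 5599 to 8486 in LPS with octanal libraries. In LPS against untreated 1 of these 13 rose and 6 fell, beside 15.2% and 17.6% of all tested genes, with a median log2 fold change of -0.68. In LPS with octanal against LPS 0 passed the test, beside 0.00% of all genes. There 10 of the 13 had a positive value, beside 45.4% of all genes, with a median of 0.71. The sums of 14 neutrophil markers were 13997 to 27237, 1895 to 2347 and 6109 to 13730 CPM in the same order, with Elane at 0 in LPS replicate 1. The sums of 11 T cell markers were 103 to 553, 1002 to 1224 and 554 to 901 CPM, with none at 0. All 11 rose in LPS against untreated, beside 15.2% of all tested genes. The sums of 10 natural killer cell markers were 8.02 to 29.3, 46.0 to 56.6 and 24.6 to 38.6 CPM, with Ncr1 at 0 in untreated replicate 1 and Klre1 at 0 in untreated replicate 3 and LPS with octanal replicate 2. These cell types express interferon-stimulated genes too, and the part of these shifts in the results was not tested. Of 11 macrophage markers 0 rose and 7 fell in LPS against untreated, beside 15.2% and 17.6% of all genes. Of 5 tested eosinophil and basophil markers 0 rose and 4 fell. Of 10 B cell markers 1 rose and 0 fell, but 9 had a negative value, with a median log2 fold change of -0.74. Their sums were 342, 363 and 108 CPM in untreated replicates 1 to 3 and 154 to 205 CPM in LPS libraries. Of 9 tested plasmacytoid dendritic cell markers 2 rose and 2 fell, and 6 had a negative value, with a median of -0.83. The median over all tested genes was 0.01. The part of these shifts was not tested either. In bulk libraries fewer cells of a type and less RNA per cell cannot be told apart.

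The starts of these genes often carry the ISRE motif, so promoter sequence is shown first for members that the results turn on. RefSeq promoter windows (GRCm38.p6, 250 bases before to 50 after each annotated start) were available for 29 of the 40 genes, as 35 windows. The ISRE core, searched on both strands as GAAA, any 2 bases and GAAA again, occurred in 15 of 35 windows (42.9%) against 3.44% of all 32851 windows. A longer form with CT after the second GAAA, which contains the core, occurred in 9 of 35 (25.7%) against 0.271% of all. The letters TTCNNNGAA, the core of the interferon-gamma activated site, occurred in 17.1% against 8.30%, and a form of the NF-kappaB motif (GGG, any 2 bases, TT, any base, CC) in 5.71% against 4.79%. A match describes letters only and says nothing of binding. The 250 bases before the start are printed 5′ to 3′ on the strand of the gene, with ISRE matches in capitals. Isg15 (chr4:156200819-156201068, minus strand) has 3 overlapping matches and Ifit1 (chr19:34640639-34640888, plus strand) has 2, which read on the opposite strand. Oasl1 (chr5:114922990-114923239, plus strand), the member with the largest fitted rise, and Trim25 (chr11:88999153-88999402, plus strand), whose fitted value was the lowest, have no match in this window.
Isg15: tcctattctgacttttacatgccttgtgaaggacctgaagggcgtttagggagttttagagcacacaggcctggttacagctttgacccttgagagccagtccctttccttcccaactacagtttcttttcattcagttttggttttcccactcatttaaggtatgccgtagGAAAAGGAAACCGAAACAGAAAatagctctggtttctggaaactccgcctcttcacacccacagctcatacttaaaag
Ifit1: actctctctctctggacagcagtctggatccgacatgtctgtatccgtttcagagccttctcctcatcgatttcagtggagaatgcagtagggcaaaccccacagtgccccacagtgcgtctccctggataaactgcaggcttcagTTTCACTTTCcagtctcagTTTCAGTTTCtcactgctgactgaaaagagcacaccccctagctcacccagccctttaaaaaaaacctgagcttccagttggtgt
Oasl1: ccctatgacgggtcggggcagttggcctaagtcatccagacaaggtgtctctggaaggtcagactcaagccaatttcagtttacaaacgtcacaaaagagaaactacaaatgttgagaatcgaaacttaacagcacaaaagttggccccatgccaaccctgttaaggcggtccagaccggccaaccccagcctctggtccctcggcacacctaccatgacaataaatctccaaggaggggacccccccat
Trim25: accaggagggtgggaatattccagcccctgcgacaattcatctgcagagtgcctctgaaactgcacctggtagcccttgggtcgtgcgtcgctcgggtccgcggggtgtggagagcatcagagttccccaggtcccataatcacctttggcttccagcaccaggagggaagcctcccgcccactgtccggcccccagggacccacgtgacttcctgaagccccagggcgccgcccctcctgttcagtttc
The core was found in 5 of the 15 members with a window that rose in LPS against untreated, and in 9 of the 14 that did not pass the test.

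Many members lie in clusters. Ifit2, Ifit3, Ifit3b and Ifit1 span 99.3 kb of chromosome 19 (34550694 to 34650009, GENCODE M21 on GRCm38). Oas2, Oas3 and Oas1a span 120730333 to 120907521 on chromosome 5, and Oasl2 with Oasl1 span 114896936 to 114937915 on the same chromosome. Parp14, Dtx3l and Parp9 lie at 35832874 to 35972605 on chromosome 16, Mx1 and Mx2 at 97447035 to 97560900 on that chromosome, and Rsad2 and Cmpk2 at 26442746 to 26479837 on chromosome 12. Ifit3 and Ifit3b are near-identical copies, and a stretch of 60 bases upstream of each (chr19:34583365-34583424 and chr19:34607761-34607820, plus strand) is the same at 60 of 60 positions, with both ISRE matches in capitals.
Ifit3: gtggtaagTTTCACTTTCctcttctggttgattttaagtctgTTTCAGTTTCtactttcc
Ifit3b: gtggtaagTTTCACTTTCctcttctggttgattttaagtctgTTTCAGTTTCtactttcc
Reads of these copies may have been split between them, so their separate values are uncertain. The same holds where gene bodies overlap. Irf9 overlaps Rnf31 on the same strand. Dtx3l with Parp9, Irf7 with Phrf1 and Rtp4 with Masp1 overlap on opposite strands, as do the antisense genes annotated across Oasl1, Ifi35, Dhx58, Parp9 and Sp100, and the use of strand is not given in the sources used here. Mx2 is annotated as a polymorphic pseudogene.

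Before any comparison of groups, 1 LPS library and 1 LPS with octanal library stood apart for these genes. All 40 were highest in LPS replicate 1 among the 3 LPS libraries, where 38.8% of all tested genes were. The ratio of LPS replicate 1 to the mean of the other 2 libraries, with 0.1 CPM added to both, had a median of 2.42 over the members and 1.01 over all tested genes. It was at least 2 for 26 members, and for 2.20% of all genes. Oas2, which makes the second messenger that activates RNase L, stood at 43.1, 4.04 and 10.5 CPM in LPS replicates 1 to 3. Tor3a, an ATPase of the endoplasmic reticulum, was the least uneven at 47.4, 38.6 and 43.8 CPM. LPS replicate 2 was the lowest of its group for 36 members, where 33.9% of all tested genes were. In LPS with octanal, replicate 1 was highest for 38 members (41.9% of all genes), with a median ratio of 2.03 (1.01 over all genes). The exceptions were Tor3a, highest in replicate 2, and Rsad2, highest in replicate 3. Summed over the members, the level was 1060, 1299 and 1211 CPM in untreated, 3775, 1615 and 2069 in LPS and 2929, 1621 and 1734 in LPS with octanal replicates 1 to 3. The labels do not say that LPS replicate 1 and LPS with octanal replicate 1 share an animal, a culture or a day.

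**Figure D1:**
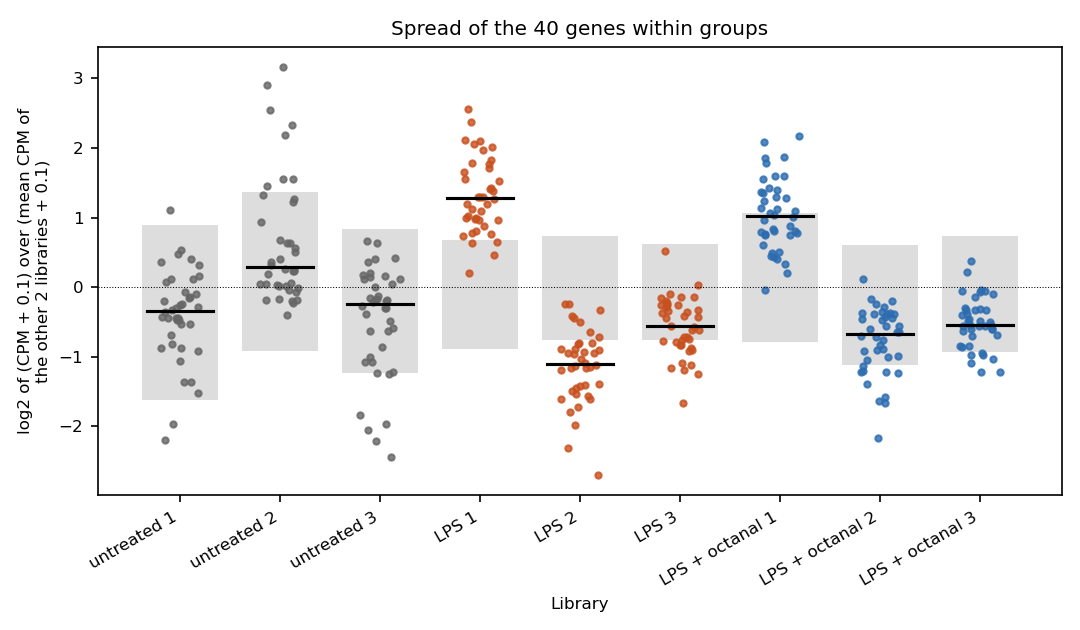
Each point is 1 of the 40 genes: the log2 ratio of its level (CPM + 0.1) in a library to the mean of the other 2 libraries of that group. Black bars are medians over the members and grey boxes span the 5th to the 95th percentile of all 15447 tested genes; in LPS replicate 1 the median is 1.28 and in LPS with octanal replicate 1 it is 1.02, both on the log2 scale.

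The untreated group was uneven in another way. Untreated replicate 2 was highest for 23 members, where 34.9% of all tested genes were, and at least 2 times the mean of the other 2 libraries for 11 members and 9.04% of all genes. The genes with the widest untreated range were Ifit3 (10.3-fold between the highest and the lowest library), Mx2 (9.11-fold), Ifit3b (7.88-fold), Ifit1 (6.45-fold) and Rsad2 (5.93-fold). Ifit3, whose product binds together with other IFIT proteins to viral RNA, reached 15.3 CPM in untreated replicate 2, beside 1.75 and 1.49 in the other untreated libraries and 15.2 in LPS replicate 2. Trim25, a ligase of ubiquitin and ISG15 that acts on the sensor RIG-I, varied little, at 179, 179 and 199 CPM. The summed T cell markers were also highest in untreated replicate 2 (553 CPM beside 103 and 347), and each of the 11 was highest there. In LPS replicate 1, 8 of these 11 were the highest of their group, with a median ratio of 1.18, and in LPS with octanal replicate 1, 9 were, with a median ratio of 1.48. Of 13 monocyte markers 4 were highest in LPS replicate 1, with a median ratio of 0.909. The share of counts from mitochondrial genes was 2.20%, 3.99% and 2.37% in untreated, 4.12%, 7.66% and 4.31% in LPS and 2.31%, 3.05% and 3.10% in LPS with octanal replicates 1 to 3. Every LPS library lay above every other library, so this share differed between the groups compared here as well, and the part of any of these in the spread or in the group differences was not tested.

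The members' levels moved together across libraries. The correlation (Pearson's r) of each member's log2 CPM with the mean of the other 39 over the 9 libraries had a median of 0.93 and was at least 0.9 for 26 members. After each group's mean was removed, the median was 0.90 and 38 members had at least 0.7. These are descriptions over 9 libraries that share treatment, depth scaling and cell makeup. The share of all tested genes with such correlations was not computed. Whether moving together is particular to the members was therefore not tested. Trim25 was at 0.00 before and 0.86 after removal of the group means, so it followed the other members between replicates of a group and not between groups. Tor3a was at 0.29 and 0.13.

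**Figure D2:**
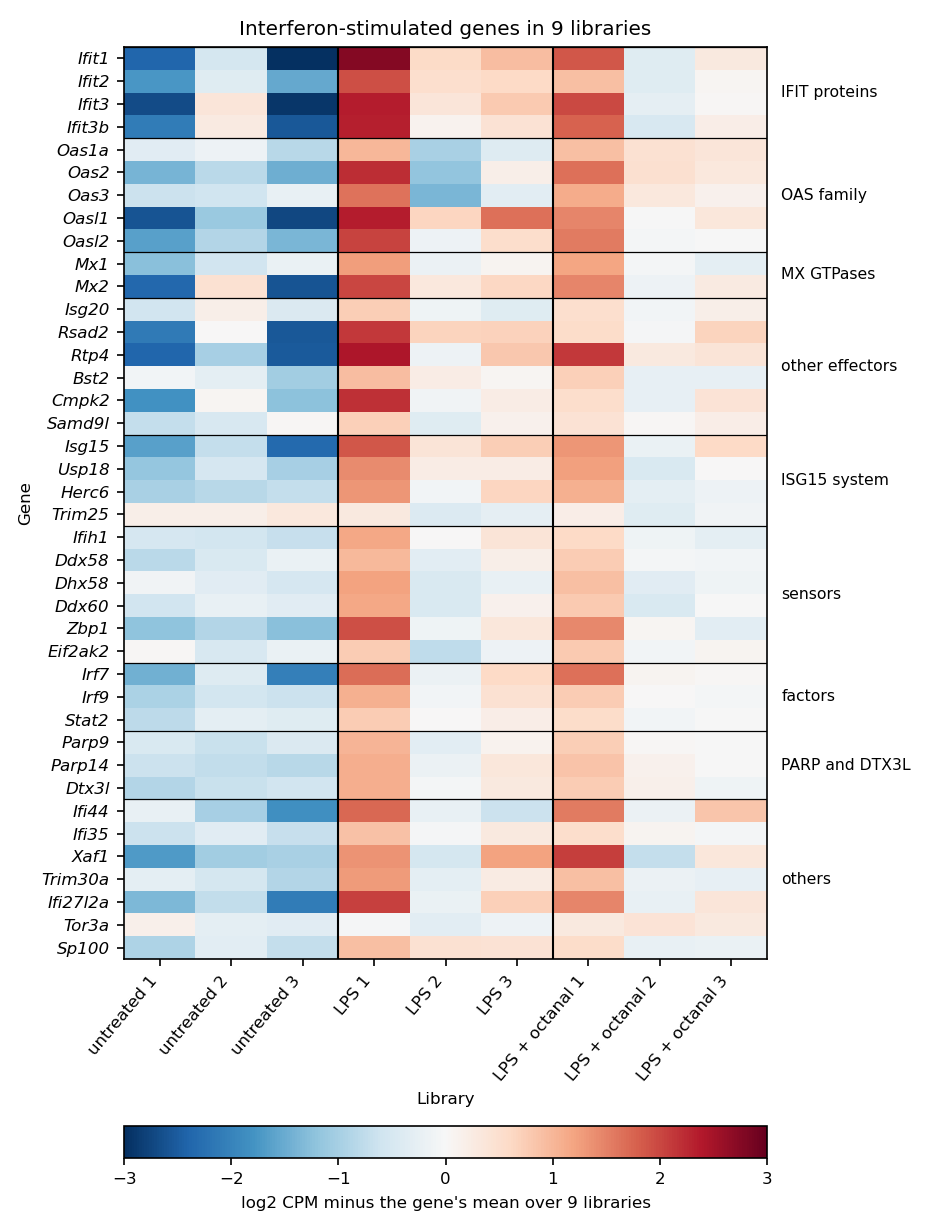
Columns are the 9 libraries and rows the 40 genes, ordered by role; colour is log2 CPM minus the gene's mean over all libraries, from -3 (blue) to 3 (red). LPS replicate 1 and LPS with octanal replicate 1 are the 2 reddest columns, and untreated replicate 2 is less blue than the other untreated libraries for the IFIT genes, Mx2 and Rsad2.

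Many of these genes were higher after 5 hours of LPS than in untreated cells. In edgeR's quasi-likelihood test of all 9 libraries, 20 of 40 rose and 0 fell at a Benjamini-Hochberg adjusted p under 0.05, where 15.2% of all tested genes rose and 17.6% fell. The fitted log2 fold change was positive for 38 of 40, with a median of 1.26, beside 0.01 over all tested genes. At an unadjusted p under 0.05, 30 were higher (22.3% of all genes). For 23 members every LPS library lay above every untreated library, as it did for 26.7% of all genes. The count depends on single libraries: it was 4 without LPS replicate 1 (4.83% of all genes), 5 without untreated replicate 1 (9.03%), 7 without untreated replicate 3 (10%) and 25 without LPS replicate 2 (8.07%). Without LPS replicate 1 the median was 0.83 with 33 positive values. Without LPS replicate 1 and LPS with octanal replicate 1 together, 15 rose and 1 fell (5.11% and 9.73% of all genes), with a median of 0.83. Ifit2, Isg15, Oasl1 and Sp100 were called in each of the 9 fits that left out 1 library. The other 16 called members all lost their call without LPS replicate 1, where Zbp1 went from 2.11 to 1.21, Oasl2 from 2.36 to 1.48, Rtp4 from 3.24 to 2.21 and Ifi27l2a from 2.45 to 1.62 on the log2 scale. Without replicate 1 of both treated groups these named genes had nearly the same values (1.21, 1.48, 2.22 and 1.62). They were called again there (adjusted p = 0.021, 0.021, 0.034 and 0.048). Ifit1, Rsad2, Irf7, Stat2 and Xaf1 were not called in that fit (adjusted p = 0.054 to 0.12).

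Beside the counts by gene family that follow, 15.2% of all tested genes rose, and for 26.7% every LPS library lay above every untreated library. With 2 to 7 genes in a family, these counts are descriptions only. Of the IFIT genes, whose products bind viral RNA that lacks host cap modifications, 2 of 4 rose. Ifit1 was at 2.72, 10.1 and 1.56 CPM in untreated replicates 1 to 3, 97.3, 21.5 and 27.7 in LPS and 52.8, 11.2 and 17.7 in LPS with octanal. All LPS libraries lay above all untreated ones, and LPS replicate 1 was far above the others. The log2 fold change for LPS was 3.36 (SE 0.915, adjusted p = 0.023), and 2.36 (adjusted p = 0.082) without LPS replicate 1 and 4.47 without untreated replicate 2. Ifit2 was at 11.1, 29.1 and 13 CPM in untreated, 143, 53.4 and 56.7 in LPS and 70.2, 29.0 and 39.3 in LPS with octanal, again with no overlap between LPS and untreated. The fitted rise in LPS was 2.25 on the log2 scale (SE 0.532, adjusted p = 0.014). The copies Ifit3 (2.39, adjusted p = 0.10) and Ifit3b (2.27, adjusted p = 0.098) did not pass the test, with untreated replicate 2 inside the LPS range.

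The oligoadenylate synthetase family makes a second messenger that activates the RNA-cutting enzyme RNase L when they meet double-stranded RNA. Both OASL genes rose, and none of Oas1a, Oas2 and Oas3 passed the test. Oasl1, which lacks the enzyme activity and in mice limits translation of the factor Irf7, was at 2.26, 6.45 and 2.02 CPM in untreated, 71.8, 21.9 and 43.9 in LPS and 38.6, 14.0 and 17.7 in LPS with octanal. No LPS library overlapped the untreated ones, and this was the largest fitted change of the 40 genes (log2 fold change 3.68, SE 0.641, 95% interval 2.23 to 5.13, adjusted p = 0.0045). Oasl2 stood at 7.80 to 13.3 CPM in untreated and 21.9 to 98.8 in LPS (2.36, adjusted p = 0.022). Oas2 had a similar fitted value (2.26) with an adjusted p of 0.051, and LPS replicate 2 lay inside the untreated range. For Oas1a (0.55) and Oas3 (1.00) LPS replicates 2 and 3 both lay within or below the untreated range, and their values without LPS replicate 1 were -0.25 and -0.29.

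The MX genes belong to a family whose GTPases can block the replication of viruses, though Mx2 is annotated as a polymorphic pseudogene, as given above. Neither Mx1 nor Mx2 passed the test. The fitted values were 1.15 on the log2 scale for Mx1 (adjusted p = 0.11) and 2.02 for Mx2 (adjusted p = 0.11). Mx2 was at 0.888, 6.78 and 0.744 CPM in untreated and 20.1, 6.14 and 7.69 in LPS, so untreated replicate 2 exceeded LPS replicate 2.

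Of 6 other antiviral effectors 2 rose. Rsad2, also called viperin, makes a chain-terminating nucleotide. It was at 8.47, 37.8 and 6.38 CPM in untreated, 162, 59.9 and 60.1 in LPS and 55.0, 36.4 and 59.0 in LPS with octanal, with all LPS libraries above all others. Its log2 fold change for LPS was 2.42 (SE 0.688, adjusted p = 0.027), and 3.63 without untreated replicate 2. With the 6 libraries of the comparison alone the adjusted p was 0.054. Rtp4, a chaperone-like protein that restricts flaviviruses, was at 2.12, 5.73 and 1.91 CPM in untreated, 61.8, 10.3 and 20.2 in LPS and 50.5, 14.0 and 15.1 in LPS with octanal. The untreated and LPS libraries did not overlap (3.24, SE 0.815, adjusted p = 0.018). Cmpk2, the nucleotide kinase next to Rsad2, had a fitted value of 1.94 (adjusted p = 0.055). Bst2 (0.88), also called tetherin, the exonuclease gene Isg20 (0.42) and Samd9l (0.58) did not pass either.

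**Figure D3:**
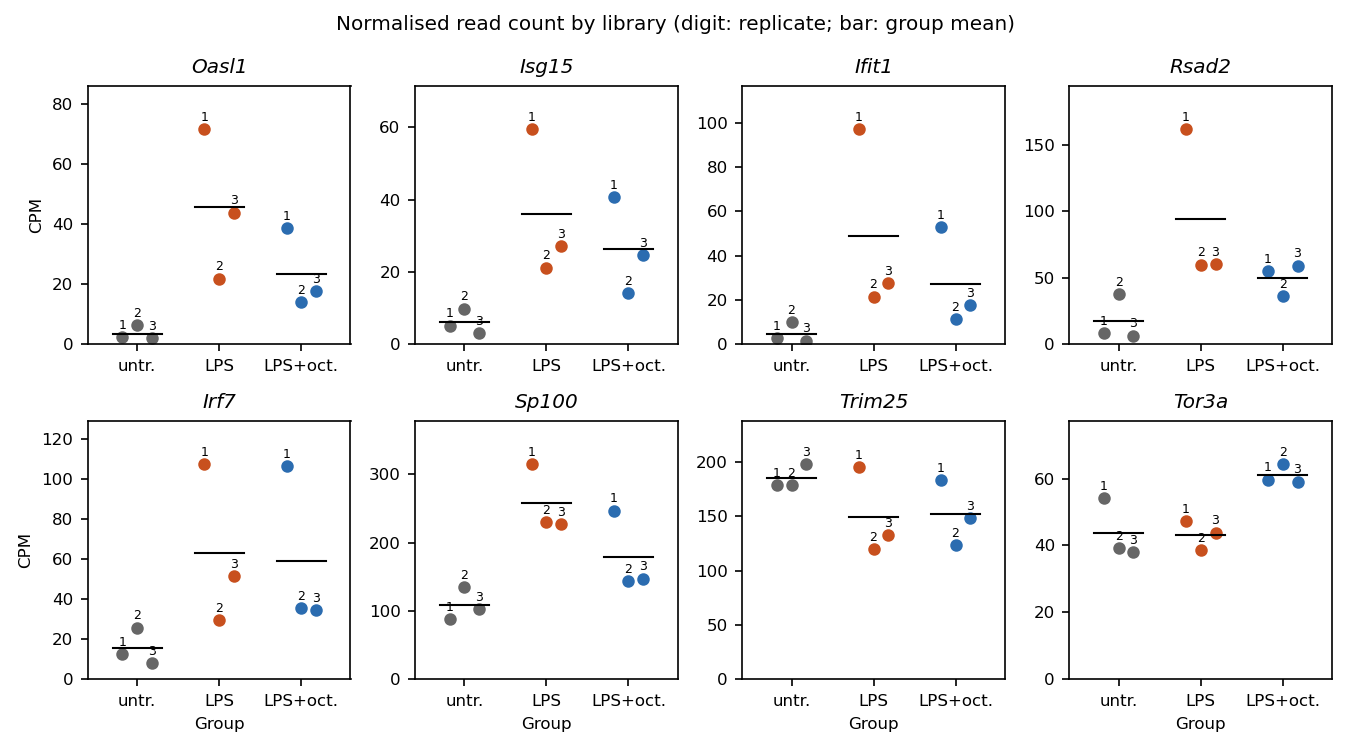
Each panel plots 1 gene as CPM on a linear axis from 0, with 1 point per library marked by its replicate number and a bar at the group mean of 3 libraries. LPS replicate 1 is the highest point in 6 of the panels, while Trim25 spans 120 to 199 CPM over all groups and Tor3a is highest in the LPS with octanal libraries (59.1 to 64.4 CPM).

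The ISG15 system attaches a ubiquitin-like protein to target proteins, and 3 of its 4 members here rose. Isg15, the modifier itself, was at 5.16, 9.82 and 3.15 CPM in untreated, 59.6, 21.2 and 27.1 in LPS and 40.7, 14.0 and 24.7 in LPS with octanal. Both treated groups lay above all untreated libraries, and the log2 fold change for LPS was 2.57 (SE 0.567, adjusted p = 0.011). Herc6, a ligase that attaches ISG15 in mice, rose by 1.58 (adjusted p = 0.022). Usp18, which removes ISG15 and also dampens the interferon receptor, was at 6.72 to 10.7 CPM in untreated and 17.7 to 40.8 in LPS (1.61, adjusted p = 0.034). Trim25 was at 179, 179 and 199 CPM in untreated, 196, 120 and 133 in LPS and 184, 124 and 149 in LPS with octanal. Its LPS libraries overlapped the untreated ones, and its log2 fold change of -0.31 (adjusted p = 0.25) reached -0.57 (adjusted p = 0.033) without LPS replicate 1 and LPS with octanal replicate 1 together, where it was the 1 member that fell.

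Among 6 sensors of foreign nucleic acid 2 rose. Zbp1, which binds Z-form nucleic acid and can start necroptosis, was at 7.99, 10.1 and 7.76 CPM in untreated and 71.5, 16.8 and 23.4 in LPS (2.11, SE 0.610, adjusted p = 0.029). Ifih1, which encodes the long-RNA sensor MDA5, was at 20.6, 19.9 and 18.1 in untreated and 65.8, 29.5 and 38 in LPS (1.19, adjusted p = 0.022). Neither overlapped between groups. Ddx58, which encodes RIG-I, had a fitted value of 0.86 (adjusted p = 0.088), Ddx60 0.81 and Dhx58, the third RIG-I-like receptor, 0.69. Eif2ak2, the RNA-activated kinase PKR, was at 0.29 with LPS replicate 2 below all untreated libraries.

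All 3 transcription factor genes rose. Irf7, which drives interferon alpha genes, was at 12.4, 25.7 and 8.0 CPM in untreated, 107, 29.5 and 51.2 in LPS and 106, 35.4 and 34.5 in LPS with octanal, with no overlap between untreated and either treated group. Its log2 fold change for LPS was 2.03 (SE 0.641, adjusted p = 0.039). Irf9 was at 38, 50.1 and 47.7 CPM in untreated and 156, 69.4 and 101 in LPS (1.27, adjusted p = 0.017), and Stat2 at 71.2, 99.0 and 95.3 against 206, 123 and 141 (0.82, adjusted p = 0.030). Both are subunits of the complex that binds the ISRE, and neither overlapped between the groups. None of these 3 was called without LPS replicate 1, where their values were 1.38, 0.89 and 0.55. Without replicate 1 of both treated groups Irf9 was called (0.89, adjusted p = 0.027). Irf7 and Stat2 were not (adjusted p = 0.081 and 0.054).

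Of the partners Parp9, Parp14 and Dtx3l, which modify proteins by ADP-ribosylation and ubiquitin, Parp14 (1.26, adjusted p = 0.020) and Dtx3l (1.24, adjusted p = 0.018) rose. Parp9, which overlaps Dtx3l on the genome, had 0.90 (adjusted p = 0.063). All 3 had no overlap between LPS and untreated.

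Of the last 7 members 4 rose. Sp100, a component of nuclear bodies, was at 87.8, 134 and 102 CPM in untreated, 315, 230 and 227 in LPS and 247, 144 and 147 in LPS with octanal. All LPS libraries lay above all untreated ones, with the smallest relative spread in LPS of the members that rose, and the log2 fold change was 1.25 (SE 0.251, adjusted p = 0.0078). Ifi27l2a, a mitochondrial protein, rose by 2.45 (adjusted p = 0.021), Ifi35 by 0.97 (adjusted p = 0.017) and the pro-apoptotic gene Xaf1 by 2.12, close to the threshold (adjusted p = 0.0499). Xaf1 lost its call in 6 of the 9 fits without 1 library. Trim30a (1.11), Ifi44 (1.74, at 4 to 102 counts per library) and Tor3a (-0.02) did not pass the test.

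In FPKM (counts scaled by gene length and library total), Sp100 was the most abundant member in LPS cells at 127 ± 25.0 FPKM (SD, n = 3), followed by Ifi27l2a at 85.1 ± 66.2, Samd9l at 61.4 ± 23.3 and Bst2 at 60.7 ± 21.1. Isg15 followed at 46.8 ± 27.4 FPKM, and neighbours in this order overlap within their SD. In LPS replicate 1 Ifi27l2a (159.6 FPKM) stood above Sp100 (155.5 FPKM). The lowest was Ifi44 at 0.413 ± 0.415 FPKM. Among the genes with the largest fitted changes, Oasl1 went from 1.52 ± 1.14 FPKM in untreated to 20.7 ± 11.5 in LPS, and Ifit1 from 1.68 ± 1.69 to 18.1 ± 15.8, so both started from low levels.

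No member passed the test between LPS with octanal and LPS. In this comparison 0 of 40 passed edgeR's test, as did 0.00% of all tested genes in either direction. At an unadjusted p under 0.05, 1 member was higher and 0 were lower (13.6% and 8.69% of all genes), and DESeq2 called 1 member higher (9.02% of all genes). The fitted value was negative for 32 of 40, with a median of -0.23 beside -0.05 over all genes. That median depends on single libraries: without LPS replicate 1 it was 0.33 with 35 positive values, and without LPS replicates 2 and 3 in turn -0.46 and -0.37. Without LPS with octanal replicates 1, 2 and 3 in turn it was -0.70, -0.079 and -0.084, with 2, 18 and 17 positive values. Without replicate 1 of both groups it was -0.15 with 13 positive values. The group mean of LPS with octanal lay between the untreated and LPS means for 33 members, above both for Isg20, Oas1a, Oas3, Ifi44, Xaf1, Eif2ak2 and Tor3a, and below both for 0. Trim25 is among the 33, but its untreated mean was the highest (186 CPM) and its LPS mean the lowest (149 CPM). The share of all tested genes with such a position was not computed. The LPS means include LPS replicate 1, and the count was not made without it, so it shows no partial return of these genes.

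Single members show how wide the intervals are. For Oasl1 the log2 fold change of LPS with octanal against LPS was -0.97 (95% interval -2.27 to 0.33) and for Ifit1 it was -0.84 (-2.72 to 1.04), so the first interval reaches from a large fall to a small rise and the second also holds a large rise. For Isg15 it was -0.44 (-1.64 to 0.76) and for Sp100 -0.52 (-1.09 to 0.04). Rsad2 was the 1 member whose LPS with octanal libraries (36.4 to 59.0 CPM) all lay below the LPS libraries (59.9 to 162), where 19.9% of all genes had that pattern. The gap between 59.0 and 59.9 CPM was small, and the log2 fold change was -0.91 (-2.39 to 0.58, adjusted p = 0.43), or -0.24 without LPS replicate 1. Tor3a was the 1 member with all LPS with octanal libraries above, as 18.3% of all genes were. It stood at 54.1, 39.3 and 38.1 CPM in untreated, 47.4, 38.6 and 43.8 in LPS and 59.7, 64.4 and 59.1 in LPS with octanal. Its log2 fold change against LPS was 0.50 (SE 0.147, 95% interval 0.17 to 0.83, adjusted p = 0.11), and it was called by DESeq2 (0.53, adjusted p = 0.015) and by edgeR on the 6 libraries of the comparison alone (0.53, adjusted p = 0.036), where 6.35% of all genes were called higher.

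**Figure D4:**
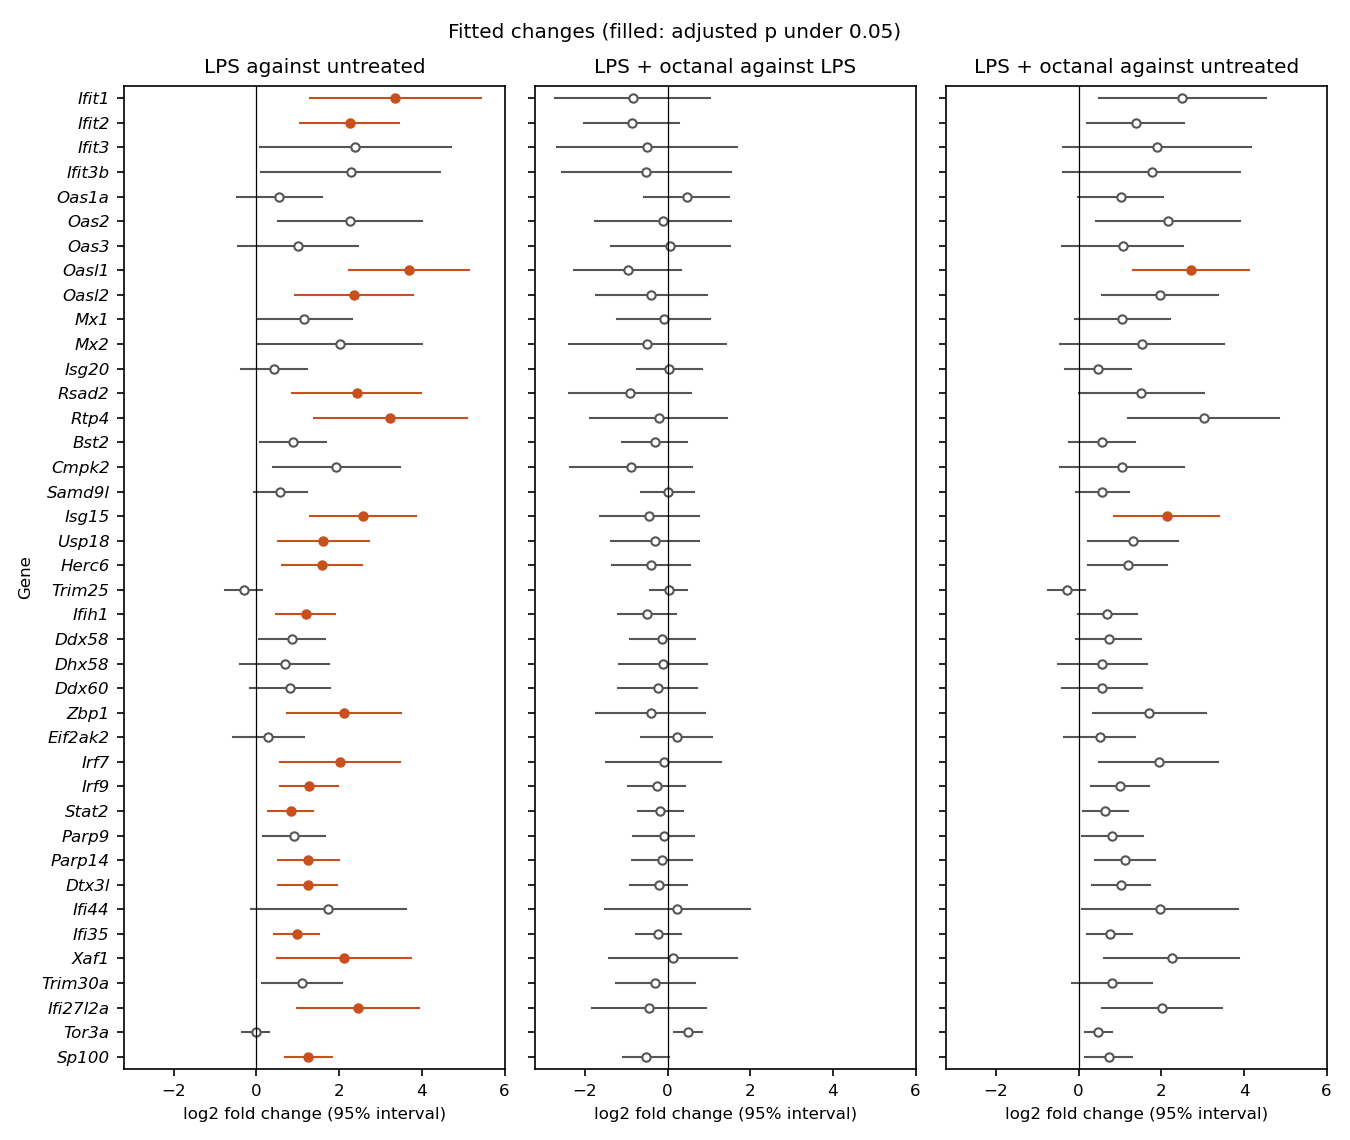
Points are log2 fold changes of the 40 genes from edgeR and lines their 95% intervals, in LPS against untreated (left), LPS with octanal against LPS (middle) and LPS with octanal against untreated (right); filled points had an adjusted p under 0.05. There are 20 filled points on the left, 0 in the middle and 2 on the right, all above 0.

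Against untreated cells, the LPS with octanal libraries were still higher for most members, with fewer calls. Of 40, 2 rose and 0 fell, where 2.63% of all genes rose and 6.03% fell. They were Oasl1 (log2 fold change 2.71, SE 0.619, adjusted p = 0.032) and Isg15 (2.13, SE 0.559, adjusted p = 0.049). Neither passed edgeR's test on the 6 libraries of the comparison alone (adjusted p = 0.054 and 0.072), where the 1 call was Oas2 (2.16, adjusted p = 0.042; 1.01% of all genes). The fitted value was positive for 39 members with a median of 1.06, and 22 were higher at an unadjusted p under 0.05 (11.0% of all genes). For 26 members no library overlapped, as for 13.5% of all genes. These included all 5 of the oligoadenylate synthetase family, all 3 transcription factors and all 3 of Parp9, Parp14 and Dtx3l. Rtp4 had the largest fitted value (3.03, adjusted p = 0.052). DESeq2 called 19 members in this comparison (6.69% of all genes). Leaving out 1 library gave 0 to 9 calls, with 9 without untreated replicate 2 (5.09% of all genes) and 8 without LPS replicate 1 (1.76%). There were 0 calls without untreated replicate 3 (2.34%) and without LPS replicate 3 (1.42%), a library outside this comparison. There were also 0 without any 1 of the LPS with octanal libraries (0.719% to 2.00%). This comparison shares the untreated libraries with LPS against untreated and the LPS with octanal libraries with the one before, so its counts are no separate support for either.

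The interferons themselves were close to absent at these depths. Of the 21 interferon genes measured, 0 passed the filter on low counts. Ifnb1, interferon beta, had 0, 0 and 5 counts in untreated, 8, 0 and 0 in LPS and 0, 0 and 2 in LPS with octanal replicates 1 to 3. Ifng, interferon gamma, had 2, 9 and 0, then 0, 6 and 0, then 2, 0 and 0 counts. The others had 0 to 4 counts in any library. Protein added to or made earlier in the cultures is not measured here.

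The receptor and its kinases were well expressed. Ifnar1 stood at 148 to 162 CPM in untreated, 133 to 154 in LPS and 158 to 173 in LPS with octanal, and its log2 fold change for LPS was -0.08 (95% interval -0.29 to 0.12). Ifnar2 was at 122, 106 and 136 CPM in untreated, 57.7, 85.0 and 73.3 in LPS and 106, 107 and 129 in LPS with octanal. Its LPS libraries lay below all others, and it fell in LPS against untreated (-0.76, SE 0.158, adjusted p = 0.0092), while LPS with octanal against LPS gave 0.66 (95% interval 0.30 to 1.02, adjusted p = 0.075). Of 14 genes of receptors and signalling, 7 rose and 3 fell in LPS against untreated, beside 15.2% and 17.6% of all genes. Those that rose included Tyk2 (0.56, adjusted p = 0.0061), Jak1 (0.73, adjusted p = 0.020) and Jak2 (0.64, adjusted p = 0.016). The feedback inhibitors Socs3 (1.63, adjusted p = 0.0080) and Socs1 (1.10, adjusted p = 0.016) and the phosphatase gene Ptpn2 (0.51, adjusted p = 0.0052) rose as well. Ifngr2, a chain of the interferon-gamma receptor, fell (-0.73, adjusted p = 0.0093), and Ifngr1 did not pass (0.56, adjusted p = 0.21). With LPS and octanal, 5 of the 14 rose and 0 fell against untreated, beside 2.63% and 6.03% of all genes.

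Of 17 genes that lead to interferon production, 5 rose and 5 fell in LPS against untreated, where 15.2% of all genes rose and 17.6% fell. Ikbke, a kinase that phosphorylates IRF3 and IRF7, was at 69.4, 82.0 and 60.2 CPM in untreated, 241, 253 and 228 in LPS and 311, 497 and 453 in LPS with octanal. The 3 groups did not overlap, replicate 1 was not the highest of either treated group, and the log2 fold change was 1.77 (SE 0.185, adjusted p = 0.00077) for LPS and 0.80 (95% interval 0.40 to 1.21, adjusted p = 0.065) for LPS with octanal against LPS. Irf3, a factor that acts on the interferon beta gene, rose by 0.40 (adjusted p = 0.021). Tlr4, the receptor of LPS, fell (-1.54, adjusted p = 0.0040), as did its adaptor gene Ticam1 (-0.52, adjusted p = 0.0086), the RNA receptor gene Tlr7 (-1.79, adjusted p = 0.0012) and Irf8 (-1.57, adjusted p = 0.0021). With LPS and octanal, 3 of the 17 rose and 3 fell against untreated (2.63% and 6.03% of all genes).

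A further 42 interferon-stimulated genes outside the 40 were less uniform. Both sets were chosen with earlier results of these data known, so the contrast between them is a description only. In LPS against untreated 13 rose and 5 fell (15.2% and 17.6% of all genes), with a median of 0.91, and 33 had a positive value. Those that rose included Ifi203 (2.31, adjusted p = 0.012), a member of the interferon-inducible p200 family, Oas1b (2.09, adjusted p = 0.012) and Trim21 (1.02, adjusted p = 0.0091), an antibody receptor inside cells. Those that fell included Slfn4 (-3.29, adjusted p = 0.0024), which was at 182 to 581 CPM in untreated and 26.0 to 57.1 in LPS, and the membrane proteins Ifitm3 (-1.92, adjusted p = 0.0068) and Ifitm1 (-1.77, adjusted p = 0.011). The neutrophil markers were lower in LPS as given above, and their part in these falls was not tested. Of the 42, 40 were highest in LPS replicate 1 (median ratio 1.80) and 36 in LPS with octanal replicate 1 (1.64). With LPS and octanal, 1 of the 42 rose and 0 fell against untreated (2.63% and 6.03% of all genes).

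Of 12 genes that respond most to interferon gamma, 5 rose in LPS against untreated and 0 fell, beside 15.2% and 17.6% of all genes. They were the guanylate-binding protein genes Gbp6 (3.00, adjusted p = 0.0078), Gbp4 (2.33, adjusted p = 0.017) and Gbp2 (1.40, adjusted p = 0.046), and the GTPase genes Iigp1 (2.64, adjusted p = 0.011) and Igtp (1.84, adjusted p = 0.021). Irgm2 (1.27, adjusted p = 0.076) did not pass. Of the 12, 10 were highest in LPS replicate 1 (median ratio 2.11) and 8 in LPS with octanal replicate 1 (2.01). With LPS and octanal, 2 rose and 0 fell against untreated (2.63% and 6.03% of all genes).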

How the data were processed

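RNA was sequenced from spleen-derived monocytes in 9 libraries, grouped by their titles into untreated, LPS and LPS with octanal, 3 of each. The authors deposited a whole-number read count per gene and library without normalization, and the same libraries as FPKM, as the file headers name both. GRCm38 is the build listed in the submitters' processing notes. Aligner, counting tool and use of strand: not given in the sources used here. There were 10 lines of text without values, which were left out. Total counts of 29594291 to 38388421 make counting error small for most members beside the spread between libraries.

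The main test was that of edgeR 4.0.16 on R 4.3.3, run on the counts (TMM factors, filterByExpr by group, quasi-likelihood test, 1 fit of all 9 libraries, Benjamini-Hochberg adjustment over 15447 genes). Calls have an adjusted p under 0.05, and adjusted p-values printed without another tool's name are edgeR's. CPM use TMM-scaled totals. Alternatives were DESeq2 1.42.0, DESeq2 size factors, no filter, a filter at 10 CPM, the 6 libraries of a comparison, a replicate block, limma 3.58.1 on log2(FPKM + 1) and leaving out each library; scripts were tested on simulated data. The 40 members and all other gene lists were chosen with earlier results of these data known. The text names all members, the interferons and their receptors, and up to 6 genes of lowest p from each further list; 1 further gene that this rule names is not reported here. Positions are from GENCODE M21, which matched all 40 members by identifier, and promoter sequences from RefSeq (GRCm38.p6).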

Additional observations from a re-analysis of the deposited data

How the results depend on the processing

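LPS against untreated gave 20 member calls, and 19 with DESeq2 size factors, 27 with DESeq2, 21 with no filter, 21 of 38 at a filter of 10 CPM, 19 with the 6 libraries alone and 22 of 39 on FPKM, where the median of all genes moved to 0.11. The share of all genes called higher in these settings was 8.69% to 26.4%. Leaving out 1 library gave 4 to 25 calls, beside 4.83% to 16.6% of all genes called higher. LPS with octanal against LPS gave 0 calls in each of these settings except DESeq2 and the 6 libraries alone, with 1 each, and 0 in every fit without 1 library. Of all genes, 0.00% to 9.02% were called higher and 0.00% to 2.92% lower in these settings. Without 1 library the shares were 0.00% to 3.06% and 0.00% to 0.618%. LPS with octanal against untreated gave 2 calls, 19 with DESeq2, 3 with DESeq2 size factors, 3 with no filter, 3 at 10 CPM, 1 with the 6 libraries alone (Oas2, without Oasl1 and Isg15), 2 on FPKM, 0 to 9 without 1 library and 0 without LPS replicate 1 and LPS with octanal replicate 1 together. The share of all genes called higher was 1.01% to 6.69% in these settings, 0.719% to 5.09% without 1 library and 1.41% without both.

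The labels do not say whether replicate numbers pair the libraries. Over all tested genes, deviations from group means correlated at -0.09 to 0.18 between libraries of the same number. The highest of these values was that of LPS replicate 1 with LPS with octanal replicate 1. Libraries of different numbers gave -0.15 to 0.21. With groups of 3 libraries these values cannot decide whether the numbers pair. With the replicate number as a block, 19, 0 and 1 members were called in the 3 comparisons in the order above, all higher. Of all genes, 11.7%, 0.00% and 1.73% were called higher. In LPS against untreated the block ended the calls of Irf7, Stat2, Rsad2 and Xaf1 and added Bst2, Parp9 and Trim30a. In LPS with octanal against untreated it ended those of Oasl1 (adjusted p = 0.068) and Isg15 (adjusted p = 0.077), and its 1 call was Parp14.

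Signs turned for genes that had not passed the test. In LPS against untreated the values without LPS replicate 1 and LPS with octanal replicate 1 together were -0.010 for Isg20, -0.25 for Oas1a, -0.29 for Oas3, -0.057 for Dhx58 and -0.25 for Eif2ak2. Leaving out 1 library gave -0.013 to 0.65 for Isg20, -0.25 to 0.85 for Oas1a, -0.29 to 1.40 for Oas3, -0.054 to 0.92 for Dhx58, -0.25 to 0.53 for Eif2ak2 and -0.12 to 0.13 for Tor3a. On FPKM Tor3a was at 0.069 and Ifnar1 at 0.021. In LPS with octanal against LPS, leaving out 1 library gave -1.72 to 0.16 for Ifit1 and -0.86 to 0.15 for Isg15, with the positive values without LPS replicate 1. In LPS with octanal against untreated it gave -0.20 to 0.020 for Ifnar2. The cause of these turns was not tested. Groups of 3 libraries limit the precision more than depth does, except for Ifi44 and the interferon genes, whose counts are few.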

Other observations

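Mndal, 1 of the further 42 interferon-stimulated genes, had a pattern across libraries unlike that of the 40 members, and was picked out after its values were seen. It stood at 12.5, 1.90 and 1.10 CPM in untreated, 73.2, 36.3 and 34.6 in LPS and 82.5, 24.1 and 1.74 in LPS with octanal replicates 1 to 3. LPS with octanal replicate 3 thus lay at the level of untreated replicates 2 and 3, where the members' summed level was 1734 CPM in that library against 1299 and 1211 in those. The gene did not pass edgeR's test in LPS against untreated (log2 fold change 3.20, adjusted p = 0.077).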
